A study of Homo sapiens with 9 samples.

Results

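The genes described here encode the machinery that copies DNA. They are 47 genes listed by name, with earlier results of these data known, among the 27800 gene symbols of the deposited expression table. All 47 were in the table and all 47 passed the filter on low values, among 14144 genes tested. They were grouped by role into origin licensing (15 genes), firing (6), polymerases (9), clamp, clamp loader and Okazaki fragment maturation (8), and fork protection with chromatin assembly (9).

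Before S phase, the origin recognition complex (ORC) marks origins, and CDC6 and CDT1 load the MCM2-7 helicase ring there, which is called licensing. Firing turns the loaded ring into an active helicase by adding CDC45 and the GINS complex. The polymerases then copy both strands with the help of the sliding clamp PCNA, its loader RFC and the single-strand binder RPA. Many of these genes are transcribed in a wave at the G1/S boundary under E2F transcription factors, and their messages are low in resting cells, so they are widely read as markers of proliferation in tumour cell lines.

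RNA was sequenced from PANC-1, an established cell line from a human pancreatic tumour, in a time course of nutrient and oxygen deprivation with 3 libraries each at days 0, 2 and 14, and 9 in all. The DMEM held amino acids at 20% of the standard level, glucose at 2.5 mM and fetal calf serum at 0.5%. No other treatment was given. The columns of all 9 libraries in the deposited table carry the label WT. The protocol was worded alike for all 9 libraries, so the state of the day 0 cells is not described, and no undeprived cells were sampled at the later days. Deprivation, time in culture and any batch by day therefore cannot be told apart, and 1 cell line stands for the tumour. Levels are in TPM, a transcript abundance corrected for length and scaled to the same total in every library, which keeps no depth. The labels do not say that replicates were separate cultures, so p-values measure only the spread between these libraries, which may be technical.

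Day 0 replicate 2 stood apart from the other 8 libraries. It had 11363 genes reaching 1 TPM, while the others had 13016 to 13868. Its correlation with day 0 replicates 1 and 3 was 0.870 and 0.875 against 0.972 between those. Its difference from the mean of replicates 1 and 3, on the log2(TPM + 1) scale, varied with the length of the longest coding transcript. The median of the members was 0.13 for the 10 with transcripts of 1000 to 2000 nt, -0.43 for the 24 of 2000 to 4000 nt and -0.93 for the 13 of 4000 to 8000 nt, close to 0.13, -0.50 and -0.96 for all tested genes of those lengths. Results of the 47 members against day 0 are therefore given with and without this library where it changes them. A pair of microRNA symbols, MIR6723 and MIR4461, held 22.4% to 40.3% of the TPM of a library. Of the epithelial markers, KRT8, KRT18, KRT19, EPCAM and CDH1 were above 8 TPM in every library, and KRT7 was at 4.42 to 8.71 TPM. The 6 together summed to 3160 to 4410 TPM at day 0, 1080 to 1280 TPM at day 2 and 1160 to 1360 TPM at day 14, a sum carried by KRT8, KRT18 and KRT19. KRT8, KRT18, KRT19 and EPCAM were called lower on both days, while CDH1 was at 17.3, 32.4 and 10.6 TPM by mean and, like KRT7, was not called on either day. The mesenchymal marker VIM was at 2068, 1682 and 943 TPM by mean and was called lower at day 14. The part of these shifts in the results was not tested. Fibroblast markers (6 genes, DCN at 0) summed to 10.5 to 62.8, 56.6 to 74.0 and 8.66 to 13.2 TPM on those days, and blood markers (4 genes, HBB at 0) to 36.1 to 69.4, 21.8 to 40.1 and 41.2 to 56.5 TPM. The fibroblast sum was carried by COL1A1 (37.2, 65.8 and 10.25 TPM by mean) and the blood sum by CD68 (52.3, 28.6 and 46.1 TPM). PDGFRB was at 0.375 TPM at most, and PTPRC at 0.176 TPM at most. Endothelial and acinar markers stayed under 0.4 TPM in sum, and INS and GCG were listed at 0 throughout.

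At day 0 the members spanned a wide range of levels. PCNA, the sliding clamp, was the most abundant by mean TPM (233 ± 106, mean ± SD, n = 3), followed by the helicase subunit MCM7 (147 ± 37.6), the polymerase delta subunit POLD2 (133 ± 15.01) and MCM2 (84.1 ± 24.4). The lowest were POLA1, the catalytic subunit of polymerase alpha (4.42 ± 2.53), and ORC4 (5.03 ± 1.55). Together the 47 genes held 1789, 1826 and 1947 TPM in the 3 day 0 libraries. They held 532, 675 and 535 TPM at day 2, and 823, 809 and 867 TPM at day 14. The summed level was thus lowest in the 3 day 2 libraries and intermediate in the 3 day 14 libraries, and the ranges of the 3 days did not overlap. For some roles the day 0 libraries agreed less than these totals. Licensing genes held 710, 503 and 783 TPM in replicates 1, 2 and 3, and clamp and loader genes 414, 668 and 436 TPM. In bulk RNA, fewer cells in S phase and less of each message per cell cannot be told apart.

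**Figure D1:**
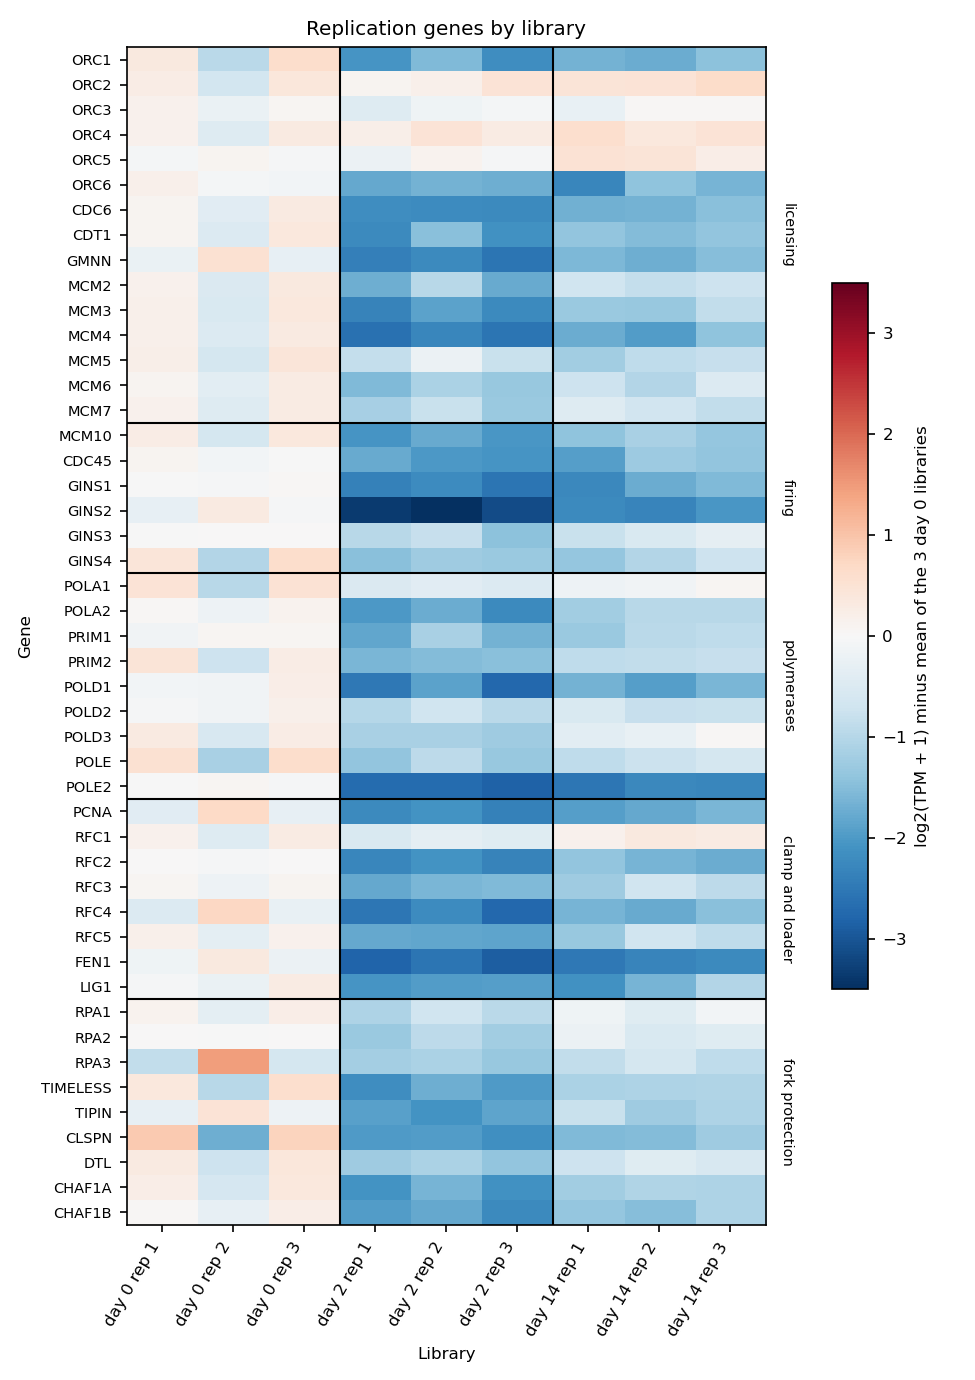
Each row is 1 of the 47 genes and each column 1 of the 9 libraries, and colour gives log2(TPM + 1) minus the mean of the 3 day 0 libraries. Blue fills most of the day 2 columns and is paler at day 14 in most genes, but not in MCM5 and ORC6, while ORC2, ORC3, ORC4 and ORC5 show little blue on either day.

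As a description with no test, promoters of the members were examined for E2F-like motifs. These were searched as TTTCCCGC, TTTCGCGC, TTTGCCGC and TTTGGCGC on both strands, which may overlap one another. RefSeq promoter windows (GRCh38.p14, 250 bases before to 50 after the gene start) matched 41 of the 47 members by symbol; MCM4, MCM5, GINS4, POLD3, RPA2 and RPA3 had no window. Of the 41 windows 19 (46.3%) held at least 1 motif, against 557 of 10198 windows of tested genes (5.46%) and 908 of all 27305 (3.33%). The CCAAT box, the letters bound by NF-Y, was in 25 of 41 (61.0%), against 36.5% of tested genes. Among members with a window, the E2F-like motif was in 16 of the 34 called lower at day 2 (47.1%) and in 3 of the 7 not called (42.9%), and the CCAAT box in 58.8% and 71.4%. These shares rest on day 0 replicate 2, since POLA1, POLE and RFC1 were called lower without it. The E2F-like motif was then in 18 of 37 called lower (48.6%) and in 1 of the 4 not called (ORC3). A match describes letters only.

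The 160 bases before the start are shown for 7 genes, selected after their values were seen, with E2F-like motifs and CCAAT boxes on either strand in capitals. GINS2, MCM6 and PCNA fell at day 2 and hold motifs, and FEN1 fell steeply with none in this window. POLA1 holds a motif and was not called with all 9 libraries but was without day 0 replicate 2, and ORC2 and ORC5, which were not called on either day with all 9 libraries, hold no E2F-like motif.
GINS2 (chr16:85688955-85689114, minus strand): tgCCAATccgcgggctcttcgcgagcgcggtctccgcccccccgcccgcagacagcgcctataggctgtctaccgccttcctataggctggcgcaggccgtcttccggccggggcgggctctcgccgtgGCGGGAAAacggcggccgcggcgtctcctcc
MCM6 (chr2:135876444-135876603, minus strand): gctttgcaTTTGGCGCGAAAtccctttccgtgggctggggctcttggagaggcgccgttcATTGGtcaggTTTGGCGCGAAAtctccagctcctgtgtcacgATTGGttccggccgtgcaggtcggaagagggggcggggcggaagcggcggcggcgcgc
PCNA (chr20:5126623-5126782, minus strand): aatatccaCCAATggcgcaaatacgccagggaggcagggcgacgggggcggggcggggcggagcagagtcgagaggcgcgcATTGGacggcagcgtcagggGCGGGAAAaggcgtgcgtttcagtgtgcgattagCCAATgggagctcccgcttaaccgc
FEN1 (chr11:61792751-61792910, plus strand): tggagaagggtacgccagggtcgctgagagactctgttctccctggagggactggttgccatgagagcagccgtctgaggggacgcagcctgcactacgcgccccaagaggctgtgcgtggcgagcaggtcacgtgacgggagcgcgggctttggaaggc
POLA1 (chrX:24693758-24693917, plus strand): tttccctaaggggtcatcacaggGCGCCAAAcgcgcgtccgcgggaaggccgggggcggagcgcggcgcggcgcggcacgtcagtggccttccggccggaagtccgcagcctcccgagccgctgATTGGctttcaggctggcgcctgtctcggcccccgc
ORC2 (chr2:200963661-200963820, minus strand): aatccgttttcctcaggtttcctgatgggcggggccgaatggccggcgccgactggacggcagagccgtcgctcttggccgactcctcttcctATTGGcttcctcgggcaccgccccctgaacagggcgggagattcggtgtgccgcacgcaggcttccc
ORC5 (chr7:104208014-104208173, minus strand): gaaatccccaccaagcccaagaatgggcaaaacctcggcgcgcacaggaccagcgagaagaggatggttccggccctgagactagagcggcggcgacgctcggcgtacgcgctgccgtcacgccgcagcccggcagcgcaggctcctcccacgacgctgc
In MCM6 the 4 matches are overlapping pairs of TTTGGCGC on one strand and TTTCGCGC on the other, and 2 CCAAT boxes lie in the same window.

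At day 2 against day 0 the replication genes were lower across every role. Of the 47 members 38 were called lower and none higher by limma on log2(TPM + 1) at an adjusted p of 0.05, with Benjamini-Hochberg adjustment over all tested genes. Among all 14144 genes 11.5% were called lower and 19.2% higher. The median log2 change of the members was -1.81, against 0.23 for all tested genes. No member was higher even at an unadjusted p of 0.05 (0 of 47), where 40 were lower. All 3 day 2 libraries were below all 3 day 0 libraries for 39 members, a pattern held by 17.4% of tested genes. Firing genes were called lower in 6 of 6 cases, clamp and loader genes in 7 of 8, fork protection genes in 8 of 9, polymerase genes in 7 of 9 and licensing genes in 10 of 15. Without day 0 replicate 2 the count was 43, with 23.6% of all genes called lower, and the 4 members not called were ORC2, ORC3, ORC4 and ORC5. The median change was then -1.88, against 0.02 for all genes.

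**Figure D2:**
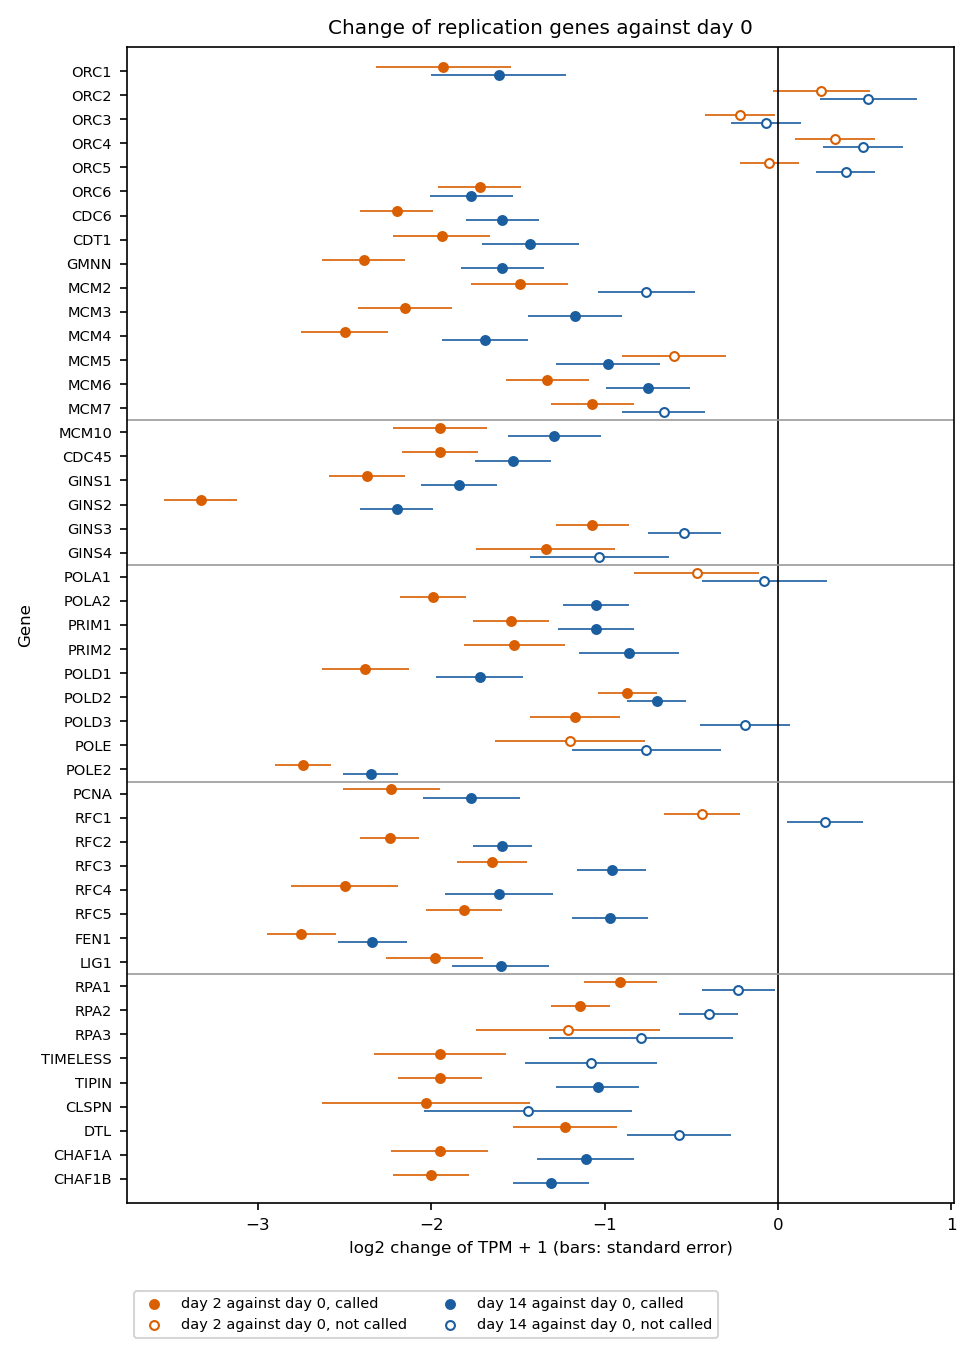
Points are the fitted log2 change of TPM + 1 against day 0 for each of the 47 genes, orange at day 2 and blue at day 14, with bars for the standard error and filled points where the adjusted p was under 0.05. Most blue points lie between the orange point and 0, and the ORC2 to ORC5 points lie near 0.

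Licensing genes divided within the origin recognition complex itself. ORC1, the subunit that is made and destroyed with each cell cycle, was at 12.4, 4.51 and 15.3 TPM at day 0, 1.52, 2.66 and 1.35 TPM at day 2, and 2.35, 2.20 and 2.97 TPM at day 14. Both later groups lay below every day 0 library, including the low replicate 2. The log2 change was -1.93 ± 0.39 (SE, limma adjusted p = 0.00689) at day 2 and -1.61 ± 0.39 (adjusted p = 0.0140) at day 14. ORC6, the smallest subunit, went from 31.5, 26.1 and 25.7 TPM to 7.24, 8.11 and 7.70 TPM at day 2 and 4.88, 9.88 and 8.32 TPM at day 14. Its log2 change at day 14 was -1.77 ± 0.24 (limma adjusted p = 0.00148), and its mean did not differ between days 2 and 14 by more than the spread (log2 change -0.04 ± 0.24).

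The other 4 ORC subunits, which form the stable core of the complex, did not pass the test on either day with the TPM as deposited. ORC5 was at 17.1, 19.3 and 17.6 TPM at day 0, 15.4, 19.5 and 17.3 TPM at day 2 and 25.9, 24.7 and 21.3 TPM at day 14. Day 2 overlapped day 0, while the 3 day 14 libraries were above both (log2 change against day 0 of 0.39 ± 0.17, limma adjusted p = 0.0997). Without day 0 replicate 2 ORC5 was called higher at day 14 (0.44 ± 0.13, limma adjusted p = 0.0267), whereas median-ratio scaling turned its sign (-0.13 ± 0.25). ORC3 was at 16.2, 12.03 and 15.1 TPM, then 10.1, 12.9 and 13.6 TPM, then 11.7, 14.8 and 14.6 TPM, with all 3 days overlapping, and was called lower at day 14 under median-ratio scaling alone of the scalings tried (-0.58 ± 0.19, limma adjusted p = 0.0488). ORC2 and ORC4 changed by 0.25 ± 0.28 and 0.33 ± 0.23 at day 2 (limma adjusted p = 0.512 and 0.295). Under median-ratio scaling, which sets the median change of all genes near 0, these became -0.00 and 0.10, and under quantile normalization 0.00 and -0.04.

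Ratios of subunit messages differed between days. The ratio of ORC1 to the geometric mean of ORC2 to ORC5 was 1.04, 0.533 and 1.23 in the day 0 libraries, 0.149, 0.216 and 0.110 at day 2 and 0.170, 0.157 and 0.210 at day 14. For ORC6 the same ratio was 2.06 to 3.08 at day 0, 0.627 to 0.711 at day 2 and 0.352 to 0.707 at day 14. Being taken within a library, such ratios do not depend on a common scaling factor of that library, and they are given as descriptions with no test. They are not free of the length-dependent difference of day 0 replicate 2. The ratio of POLE2 (1792 nt) to POLE (7840 nt) was 1.85 in that library, against 0.508 and 0.465 in day 0 replicates 1 and 3.

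The loading factors and their inhibitor fell together. CDC6, the ATPase that joins ORC in loading the helicase, was at 30.8, 21.5 and 35.7 TPM at day 0, 5.58, 5.42 and 5.34 TPM at day 2 and 8.34, 8.50 and 9.86 TPM at day 14. The day 2 libraries were nearly equal, and the 3 days did not overlap. CDC6 fell by 2.20 on the log2 scale at day 2 (SE 0.21, limma adjusted p = 0.000309) and by 1.59 at day 14 (SE 0.21, limma adjusted p = 0.00130). CDT1, the loader of MCM2-7, changed by -1.94 and -1.43, and GMNN (geminin, which binds and blocks CDT1) by -2.39 and -1.59, on those days. The ratio of CDT1 to GMNN ranged from 0.289 to 0.942 at day 0, 0.630 to 0.994 at day 2 and 0.609 to 0.660 at day 14, with overlapping ranges.

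The 6 helicase subunits MCM2 to MCM7 form a ring with 1 copy of each, and the fitted falls of their messages ranged widely (differences between subunits were not tested). MCM4 was at 92.3, 58.4 and 101 TPM at day 0, 12.4, 15.9 and 12.9 TPM at day 2 and 24.0, 20.5 and 30.3 TPM at day 14. It had the largest day 2 change of the licensing genes (-2.50 ± 0.25, limma adjusted p = 0.000366). MCM3 was at 68.0, 41.6 and 77.9 TPM, then 11.1, 15.8 and 12.1 TPM, then 23.9, 23.5 and 32.6 TPM (-2.15 ± 0.27 at day 2 and -1.17 ± 0.27 at day 14). Both were lowest in the day 2 libraries, and their 3 days did not overlap. MCM2 (-1.49), MCM6 (-1.33) and MCM7 (-1.07) were also called lower at day 2. MCM2 and MCM7 were not called at day 14 (limma adjusted p = 0.0681 and 0.0625) and were without day 0 replicate 2 (0.0093 and 0.00504).

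MCM5 had the smallest change of the ring at day 2. It was at 72.5, 40.2 and 83.7 TPM at day 0, 34.5, 54.3 and 36.4 TPM at day 2 and 26.2, 33.2 and 35.3 TPM at day 14. Day 2 replicate 2 lay above day 0 replicate 2, so these groups overlapped, and the day 2 change of -0.60 ± 0.30 was not called (limma adjusted p = 0.159). It was called without day 0 replicate 2 (-0.91 ± 0.22, limma adjusted p = 0.0106). At day 14 MCM5 was called lower (-0.98 ± 0.30, limma adjusted p = 0.0365), a call lost when any of 7 of the 9 libraries was left out (all but day 0 replicate 2 and day 2 replicate 2, adjusted p 0.053 to 0.111). MCM5 and ORC6 were the only members with a lower fitted value at day 14 than at day 2. Within each library MCM6 was the lowest and MCM7 the highest of the 6 messages, 4.39 to 4.87 times apart at day 0, 4.93 to 6.45 times at day 2 and 3.58 to 6.10 times at day 14.

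Firing genes included the largest day 2 change among the 47, that of GINS2. GINS2, a subunit of the GINS complex that holds the helicase to CDC45, was at 33.4, 51.2 and 39.6 TPM at day 0, 3.07, 2.64 and 3.80 TPM at day 2 and 7.93, 7.34 and 9.16 TPM at day 14. The 3 days did not overlap, with day 14 between the others. Its mean TPM was 13.1-fold lower at day 2 and 5.08-fold lower at day 14, and its log2 change at day 14 was -2.20 ± 0.21 (limma adjusted p = 0.000388). The partner subunit GINS3 was at 7.80, 7.85 and 7.87 TPM, then 3.47, 4.03 and 2.29 TPM, then 4.11, 5.14 and 6.12 TPM. This smaller fall (-1.07 ± 0.21) took the ratio of GINS2 to GINS3 from 4.28 to 6.52 at day 0 to 0.655 to 1.66 at day 2 and 1.43 to 1.93 at day 14.

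GINS1 fell by 2.37 and 1.84 on the log2 scale at days 2 and 14, and CDC45, the helicase cofactor, by 1.95 and 1.53. MCM10, which is needed to start the assembled helicase, changed by -1.95 and -1.29. GINS4 was at 6.87, 1.88 and 8.10 TPM at day 0, 1.15, 1.49 and 1.39 TPM at day 2 and 1.32, 1.89 and 2.61 TPM at day 14. Its low day 0 replicate 2 overlapped day 14, and its day 2 call (-1.34 ± 0.40, limma adjusted p = 0.0356) was lost without any of 6 of the 9 libraries (day 0 replicates 1 and 3, all day 2 libraries and day 14 replicate 2, adjusted p 0.0551 to 0.103). At day 14 it was not called with all libraries and was called without day 0 replicate 2 (-1.55 ± 0.20, limma adjusted p = 0.000753).

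Among the polymerases, subunits of the same enzyme had changes of different size. POLE2, the second subunit of the leading-strand polymerase epsilon, was at 13.1, 13.7 and 12.7 TPM at day 0, 1.19, 1.18 and 0.981 TPM at day 2 and 1.47, 1.99 and 1.89 TPM at day 14. Replicates agreed closely and the 3 days did not overlap. Its log2 change was -2.74 ± 0.16 at day 2 and -2.35 ± 0.16 at day 14 (limma adjusted p = 6.7e-05 and 0.000107), and its mean TPM was 11.8-fold and 7.38-fold lower. POLE, the catalytic subunit, was at 25.7, 7.39 and 27.3 TPM, then 6.14, 8.86 and 6.36 TPM, then 8.90, 9.94 and 11.1 TPM. Only day 0 replicate 2 overlapped the later days, and POLE was not called with it (-1.20 ± 0.43, limma adjusted p = 0.0642) and was without it (-1.77 ± 0.17, limma adjusted p = 0.000214), as it was at day 14 (-1.33 ± 0.17, limma adjusted p = 0.000708).

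Polymerase alpha, which primes each new strand, also had subunits with changes of different size. POLA1 was at 5.80, 1.501 and 5.96 TPM at day 0, 2.43, 2.70 and 2.52 TPM at day 2 and 3.35, 3.498 and 4.13 TPM at day 14. It was not called on either day (-0.47 ± 0.36 and -0.08 ± 0.36), but without day 0 replicate 2 it was called lower on both (-0.96 ± 0.12 and -0.57 ± 0.12, limma adjusted p = 0.000682 and 0.00639). Its partner POLA2 was called with all libraries (-1.99 ± 0.19 and -1.05 ± 0.19). The primase subunits PRIM1 and PRIM2 were at -1.54 and -1.52 at day 2 and at -1.05 and -0.86 at day 14. PRIM1 lost its day 14 call with the trend on transcript length removed (-0.71 ± 0.28, limma adjusted p = 0.0724). The day 14 call of PRIM2 (limma adjusted p = 0.0487) was lost without any of 8 of the 9 libraries (adjusted p 0.0729 to 0.123) and held without day 0 replicate 2.

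In polymerase delta, the lagging-strand enzyme, the catalytic subunit POLD1 fell most (-2.38 ± 0.25 and -1.72 ± 0.25). POLD2 was at 128, 121 and 150 TPM at day 0, 66.3, 81.4 and 68.7 TPM at day 2 and 91.4, 75.2 and 77.4 TPM at day 14. It stayed below day 0 on both days (-0.87 ± 0.17 and -0.70 ± 0.17), although the day 14 call was lost without day 14 replicates 2 or 3 (adjusted p 0.0564 at most). The POLD2 call at day 14 was also lost in a fit of days 0 and 14 alone. With the trend on transcript length removed it was lost too (-0.52 ± 0.20, limma adjusted p = 0.0735). POLD3 was at 14.6, 7.56 and 14.0 TPM, then 4.72, 4.77 and 4.37 TPM, then 8.74, 9.59 and 12.02 TPM. It was called lower at day 2 (-1.17 ± 0.26). At day 14 it overlapped day 0 through replicate 2 alone and was not called (-0.19 ± 0.26, limma adjusted p = 0.576), but was called lower without that library (-0.47 ± 0.14, limma adjusted p = 0.0248).

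**Figure D3:**
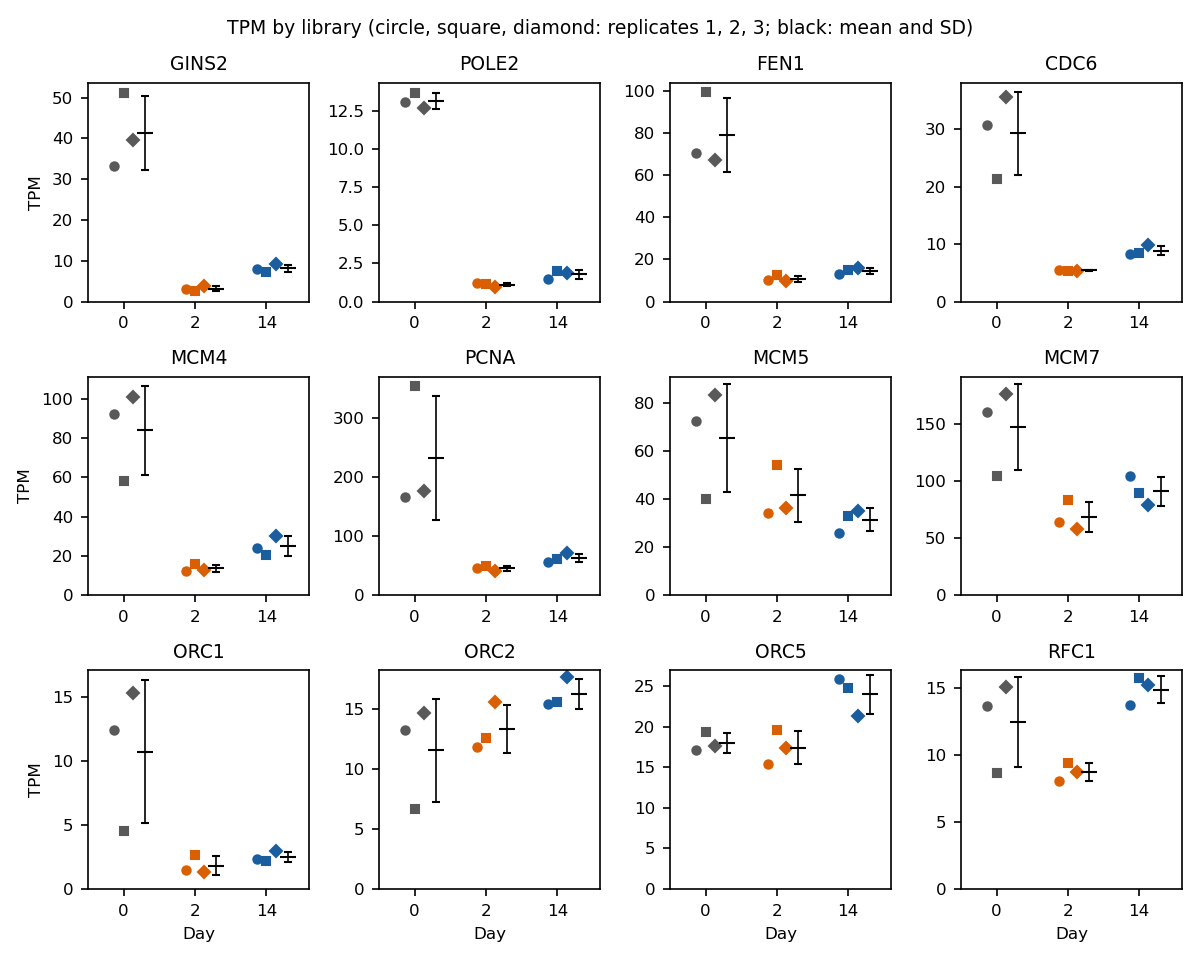
TPM of 12 members in each library by day, with circles, squares and diamonds for replicates 1, 2 and 3 and the mean ± SD in black. GINS2, POLE2, FEN1 and CDC6 show 3 separate groups, whereas day 14 means of ORC2, ORC5 and RFC1 are above day 0, a direction that median-ratio scaling turned for ORC5 and RFC1.

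Clamp and maturation genes were called lower in 7 of 8 cases at day 2. FEN1, the nuclease that trims Okazaki fragment flaps, was at 70.3, 99.2 and 67.2 TPM at day 0, 10.2, 12.5 and 9.62 TPM at day 2 and 13.01, 14.9 and 15.8 TPM at day 14. At day 14 its log2 change was -2.34 ± 0.20 (limma adjusted p = 0.000251) and its mean TPM was 5.42-fold lower than at day 0. LIG1, the ligase that seals the fragments, was at 17.9, 15.5 and 22.6 TPM, then 3.68, 4.04 and 4.13 TPM, then 3.45, 5.28 and 8.50 TPM. Both later days lay below day 0 and overlapped each other.

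PCNA was at 166, 354 and 177 TPM at day 0, 46.1, 50.03 and 41.8 TPM at day 2 and 57.2, 61.9 and 71.4 TPM at day 14 (-2.23 ± 0.28 and -1.77 ± 0.28). Without day 0 replicate 2 PCNA changed by -1.88 ± 0.13 and -1.43 ± 0.13. Its high day 0 replicate 2 coincided with a value of 0 for the overlapping antisense symbol PCNA-AS1, whose level was 248 TPM in replicate 1 and 283 TPM in replicate 3 of that day. The sum of both symbols was 414, 354 and 460 TPM at day 0, 127 to 143 TPM at day 2 and 165 to 187 TPM at day 14. Whether counting used strand is not given in the sources used here, so reads of the pair cannot be told apart and PCNA's own level is uncertain. GENCODE v29 also names pseudogene copies of PCNA, POLD2, RFC3, RFC5, FEN1 and RPA2. Of these copies only PCNAP1 was among the deposited symbols, at 0 TPM. Whether reads of such copies entered the members' values was not tested.

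RFC is a ring of 5 proteins that opens PCNA around DNA, and its large subunit RFC1 had the smallest changes of the clamp genes. RFC1 was at 13.7, 8.699 and 15.1 TPM at day 0, 8.06, 9.45 and 8.76 TPM at day 2 and 13.8, 15.8 and 15.2 TPM at day 14. It overlapped day 0 on both days (-0.44 ± 0.22 and 0.27 ± 0.22, not called), and at day 2 it was called lower without day 0 replicate 2 (-0.66 ± 0.11, limma adjusted p = 0.00279). The sign of its day 14 value turned under median-ratio scaling (-0.24 ± 0.13). RFC4 was at 44.6, 103 and 51.7 TPM, then 9.84, 12.8 and 8.35 TPM, then 19.4, 17.7 and 21.9 TPM, and with RFC2, RFC3 and RFC5 it was called lower on both days. The 4 small subunits changed by -1.65 to -2.50 at day 2 and by -0.96 to -1.61 at day 14. Without day 0 replicate 2 these ranges were -1.74 to -2.26 and -1.05 to -1.60, and RFC4 changed by -2.13 and -1.25. The ratio of RFC1 to the geometric mean of the 4 small subunits went from 0.393, 0.235 and 0.417 at day 0 to 1.06, 1.08 and 1.17 at day 2, and was 1.06, 1.04 and 1.05 at day 14.

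**Figure D4:**
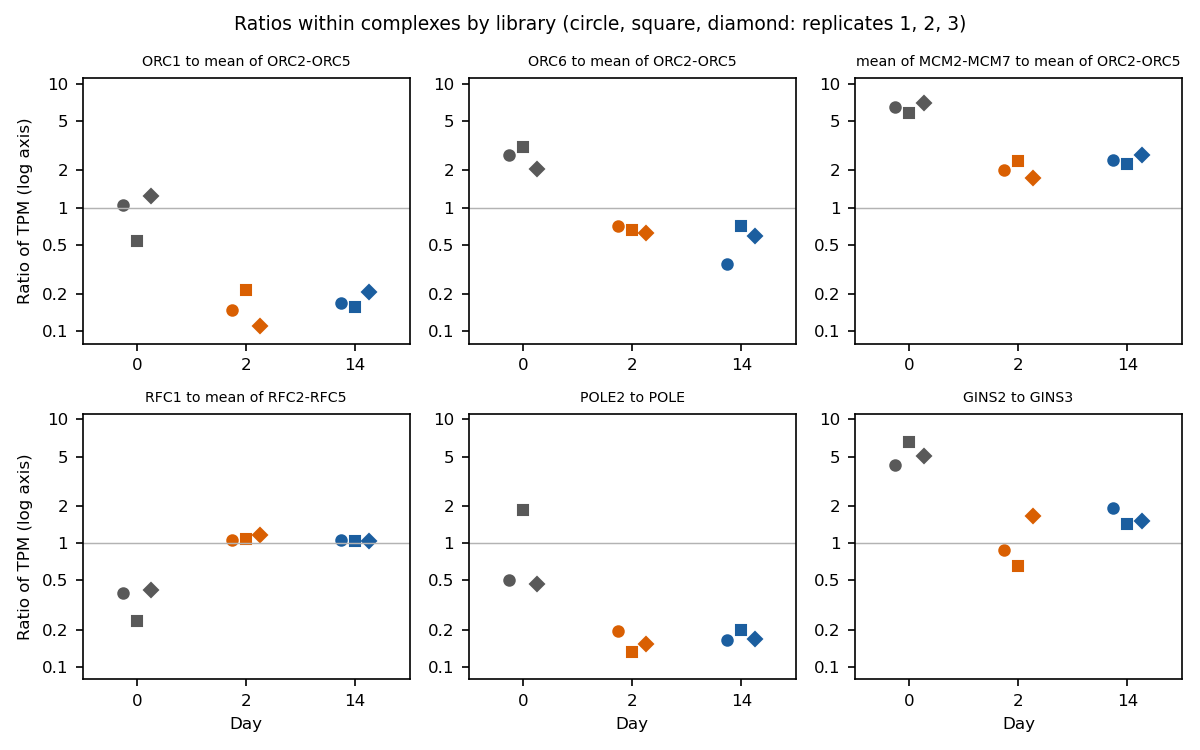
Each panel gives a ratio of TPM within a library (log axis) by day, with circles, squares and diamonds for replicates 1, 2 and 3. The ratios to ORC2-ORC5 and the POLE2 and GINS2 ratios are lower at days 2 and 14 than at day 0, and the RFC1 ratio is higher.

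Fork protection genes were called lower in 8 of 9 cases at day 2 and in 3 of 9 at day 14. RPA1, the large subunit of the single-strand binder, was at 37.9, 27.2 and 41.6 TPM at day 0, 15.9, 21.2 and 17.6 TPM at day 2 and 31.3, 26.0 and 32.4 TPM at day 14. Day 2 lay below every other library, and day 14 overlapped day 0 (-0.91 ± 0.21 at day 2, -0.23 ± 0.21 at day 14, limma adjusted p = 0.0127 and 0.426). The day 2 call was lost without day 2 replicate 1 (adjusted p = 0.0563). RPA2 changed by -1.14 and -0.40. Scaling bears on the day 14 values. Under median-ratio scaling RPA1 and RPA2 were called lower at day 14 (-0.76 ± 0.15 and -0.93 ± 0.22, limma adjusted p = 0.00662 and 0.0141). Quantile normalization also called both (-0.54 ± 0.13 and -0.63 ± 0.13, limma adjusted p = 0.0151 and 0.00759), and neither scaling called RPA3. RPA3 was at 24.0, 126 and 28.8 TPM, then 19.0, 20.1 and 17.2 TPM, then 24.0, 28.6 and 23.6 TPM. Its day 0 mean rested on replicate 2, and without it the day 2 change was -0.47 ± 0.13 (limma adjusted p = 0.0228), against -1.21 ± 0.53 (0.115) with it.

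CLSPN (claspin, an adaptor of the replication checkpoint) was at 28.5, 3.84 and 26.1 TPM at day 0, 2.94, 3.05 and 2.57 TPM at day 2 and 4.39, 4.48 and 5.60 TPM at day 14. Its day 0 replicate 2 was close to the later days, with a difference from replicates 1 and 3 of -2.55 on the log2 scale, the lowest of any member. CLSPN was called lower at day 2 (-2.03 ± 0.60, limma adjusted p = 0.0333), a call lost without any 1 of the 8 other libraries (adjusted p 0.0514 to 0.0911). Without day 0 replicate 2 it was called at day 14 too (-2.29 ± 0.13, limma adjusted p = 5.8e-05). TIPIN was at 20.6, 35.6 and 22.3 TPM, then 6.02, 5.17 and 6.35 TPM, then 14.3, 10.1 and 11.6 TPM (-1.95 ± 0.24 and -1.04 ± 0.24). Its partner TIMELESS, with which it steadies the fork, was called lower at day 2 (-1.95 ± 0.38). Day 0 replicate 2 was low for TIMELESS and high for TIPIN, and without it the day 2 changes were -2.44 ± 0.15 for TIMELESS and -1.72 ± 0.16 for TIPIN. DTL, which directs the destruction of CDT1, was at -1.23, and the chromatin assembly subunits CHAF1A and CHAF1B were called lower on both days. DTL was not called at day 2 without day 2 replicate 3 (adjusted p = 0.0570), and at day 14 TIPIN was not without day 14 replicate 2 (0.0502) nor CHAF1A without day 14 replicate 1 (0.0527). Without day 0 replicate 2, 6 of the 9 were called at day 14, all but the RPA subunits.

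At day 14 against day 0, 29 of the 47 members were called lower and none higher by limma, against 6.72% lower and 27.5% higher among all tested genes. The median change was -1.05, against 0.44 for all genes. At an unadjusted p of 0.05, 36 were lower and 1 was higher. Libraries did not overlap, with day 14 below, for 34 members, as for 9.95% of tested genes. By role, 9 of 15 licensing, 4 of 6 firing, 6 of 9 polymerase, 7 of 8 clamp and loader and 3 of 9 fork protection genes were called. Without day 0 replicate 2 there were 38 lower and 1 higher (ORC5), against 14.5% lower and 34.6% higher among all genes, and the median change was -1.29, against 0.25. Scaling bears on this comparison, since median-ratio scaling moved the median of all genes to 0.00 and the calls over all genes to 16.8% lower and 16.8% higher. The members then gave 41 lower and none higher.

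Between day 14 and day 2, no member was called in either direction by limma with all 9 libraries, where 0.205% of all genes were called lower and 0.212% higher. The fitted change was above 0 for all members but MCM5 and ORC6, with a median of 0.59 against 0.24 for all genes. At an unadjusted p of 0.05, 27 of 47 members were higher (14.7% of all genes) and 0 lower. All 3 day 14 libraries were above all 3 day 2 libraries for 32 members, a pattern that 36.8% of tested genes also had. This held for 9 of 9 fork protection, 7 of 8 clamp and loader, 6 of 9 polymerase, 3 of 6 firing and 7 of 15 licensing genes. The largest changes were in GINS2 (1.14 ± 0.21, limma adjusted p = 0.0656), MCM3 (0.98 ± 0.27, 0.120) and POLD3 (0.97 ± 0.26, 0.114).

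The calls of this comparison changed with day 0 replicate 2, which is in neither group. It entered the single fit, in which all libraries share an estimate of the spread of each gene. Without it the median fitted change of the members stayed at 0.59 and that of GINS2 at 1.14, while the SE of GINS2 went from 0.21 to 0.14. Without that library 30 members were called higher and none lower, with 23.5% of all genes called higher, and GINS2 then had an adjusted p of 0.00603 (limma). A fit of days 2 and 14 alone called 22 (15.1% of all genes), and weighting libraries by their quality called 38 (31.2%). Not among the 30 were ORC1, ORC2, ORC3, ORC4, ORC6, CDT1, MCM5, MCM7, CDC45, GINS1, GINS3, GINS4, PRIM1, POLD1, POLD2, POLE and LIG1.

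Of 35 other genes of replication, listed by function with earlier results of these data known, 21 were called lower and 1 higher at day 2. At day 14, 17 were called lower and 2 higher, with 0 between days 14 and 2. Among all tested genes 11.5% were lower and 19.2% higher at day 2, and 6.72% lower and 27.5% higher at day 14. The median change of the 35 was -1.19 at day 2 and -0.70 at day 14, against 0.23 and 0.44 for all tested genes. DSCC1, of an alternative clamp loader, went from 17.2 to 1.47 and 3.502 TPM (mean of 3 libraries per day, log2 change -2.84 ± 0.28 at day 2), and RECQL4, a helicase needed for firing, from 45.4 to 5.99 and 8.09 TPM (-2.75 ± 0.18). HUS1, a subunit of the checkpoint clamp, was called higher on both days (0.79 ± 0.22 and 0.74 ± 0.22, limma adjusted p = 0.0277 and 0.0318), and its loader RAD17 at day 14 (0.73 ± 0.22, limma adjusted p = 0.0321). The clamp subunits RAD1 and RAD9A changed the other way at day 2 (-0.62 ± 0.18 and -0.86 ± 0.29, limma adjusted p = 0.0279 and 0.0557). CHTF8 had the largest fitted rise of the 35 on both days. Its changes of 0.82 ± 0.43 and 1.01 ± 0.43 were not called (limma adjusted p = 0.174 and 0.0981). Day 0 replicate 2 was the lowest day 0 library for HUS1 (10.6 TPM, against 17.3 and 15.1), RAD17 (10.7 TPM, against 18.9 and 17.5) and CHTF8 (15.2 TPM, against 54.55 and 55.5). Results without it are not given for these genes. The firing kinases CDC7 and CDK2 and the cyclins CCNE1, CCNE2 and CCNA2 were lower on both days.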

How the data were processed

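The deposited table gives TPM per gene symbol for 9 PANC-1 libraries. The authors made it with Salmon and name hg19, according to the submitters' processing notes; Salmon's version, annotation and strand setting are not given in the sources used here. Columns were matched to samples through the day and number they carry. The 47 members, their roles and the other gene lists were chosen with earlier results of these data known. Every member may be named, and values per library are given for at least those with the largest and smallest change in each role.

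The measure was log2(TPM + 1), on which changes of low genes come out too small. A gene was tested where 3 or more of the 9 libraries reached 1 TPM. All libraries entered a single limma fit (limma 3.58.1, R 4.3.3, trend on intensity), with two-sided tests and Benjamini-Hochberg adjustment over all tested genes at 0.05. The fit was tested on simulated data with independent noise for each gene. Such data do not hold the length-dependent difference of day 0 replicate 2. Members are described by counts beside those of all genes, with no set test. TPM keep no depth, so no counting interval is given. Alternatives were pseudocounts of 0.1 and 5, other filters, scalings and limma settings, a replicate block, fits of 2 days and leaving out each library. After the data had been seen, rescaling without microRNA and small nucleolar RNA symbols was added, as was removing a length trend (GENCODE v29, longest coding transcript, 25430 of 27800 symbols matched).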

Additional observations from a re-analysis of the deposited data

How the results depend on the processing

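Across 23 other settings, the members called lower numbered 35 to 44 at day 2 (38 as reported) and 24 to 41 at day 14 (29 as reported), and no called member changed sign. The calls of 34 of 38 members at day 2 and 22 of 29 at day 14 were kept in every setting in which they were tested. Leaving out 1 library gave 35 to 43 at day 2 and 24 to 38 at day 14. Members called higher at day 14 against day 0 numbered 0 to 1 when 1 library was left out, 1 with array weights and 1 with the length trend removed, ORC5 each time. Members called higher at day 14 against day 2 numbered 0 to 30 when 1 library was left out, 38 with array weights, 22 with only those 2 days, 1 under quantile normalization (POLD3) and 1 with the length trend removed (GINS2). With the replicate block 38 were lower at day 2 and 26 at day 14; MCM5, MCM6 and PRIM2 lost their day 14 calls (adjusted p = 0.072, 0.0654 and 0.0722). Deviations of same-numbered libraries correlated at -0.08 to 0.02, so the numbers were not treated as pairs. The day 14 call of MCM6 was also lost without any 1 of 7 libraries (adjusted p 0.0541 to 0.136). The depth of these libraries is unknown.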
